A study of Serapias vomeracea and Serapias vomeracea
Tulasnella calospora with 6 samples.

Results

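In 40 Trinity genes of Serapias vomeracea protocorms, the contig that carried most of the gene's reads without a fungus gave way to another contig when the mycorrhizal fungus Tulasnella calospora was present. Trinity is an assembler that joins reads into contigs without a genome. It calls contigs that share sequence a gene, and the single contigs its isoforms. The genes were chosen by a rule on the measured reads. A gene needed at least 2 contigs and at least 10 CPM (reads of the gene relative to 1000000 reads of the library) in all 6 libraries. One contig had to hold at least 50% of the gene's reads in each asymbiotic library, and a different contig at least 50% in each mycorrhizal library. Of 159127 Trinity genes, 6400 had the contigs and the reads to be considered, and 40 met the rule. These 40 genes hold 134 of the 205249 contigs of the assembly.

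Serapias vomeracea is a terrestrial orchid whose dust-like seeds form a protocorm, a small tuber-like body, before shoots and roots appear. The asymbiotic protocorms grew on modified BM1 medium, and the mycorrhizal ones on oat medium with Tulasnella calospora. Both were kept at 20 °C in darkness to the stage that the labels call P2, with 3 libraries per group. Effects of the fungus and of the medium cannot be told apart. The mycorrhizal tissue contains both organisms, and fewer cells of a kind and less RNA per cell cannot be told apart in it either. The reference is stated to be assembled from asymbiotic reads.

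A plant gene can give several transcripts, through alternative splicing, different start sites or different polyadenylation sites, and these can differ in the protein they encode or in their stability. In a de novo assembly, contigs of 1 gene can also be alleles, close paralogues or fragments. The identifiers do not tell these apart, and the files pair none of them with a gene name or a sequence. The genes are therefore described by contig number, contig length and reads, and no function is given. The leading contig of asymbiotic protocorms is called here the asymbiotic leader, and that of mycorrhizal protocorms the mycorrhizal leader.

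Library totals ranged from 87991285 to 216364014 reads. The share of reads unique to 1 contig lay between 51.4% and 55.7%. A library that stood apart was mycorrhizal replicate 3, with reads on 51806 contigs against 83622 to 164346 in the others. It also differed most in how the reads of a gene were spread over its contigs. Over the 6400 genes, the median part of a gene's reads that lay on other contigs was 19.9% between mycorrhizal replicates 1 and 3, and 20.1% between replicates 2 and 3. It was 7.62% between mycorrhizal replicates 1 and 2, and 6.54% to 9.72% between asymbiotic replicates. Between an asymbiotic library and mycorrhizal replicate 1 or 2 it was 8.85% to 12.7%, a range that overlaps that between asymbiotic replicates. Between an asymbiotic library and mycorrhizal replicate 3 it was 21.1% to 22.2%.

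A switch was rare among the genes that were considered. A contig with at least 50% of the reads in every library of a group was found in 4013 genes for the asymbiotic and 3279 for the mycorrhizal group. Both groups had such a contig in 2915 genes, and it was the same contig in 2875 of them. The 40 genes are 0.625% of the 6400, a share that depends on the limits chosen for the rule. Most met it narrowly. The smallest share that a leader held in any library of its own group lay between 50.2% and 63.7%, with a median of 51.9%. It was under 52% in 22 genes, and reached 60% in 2. With the minimum set at 60% in place of 50%, 2 genes remained, and at 75% none did. Just outside the rule, 81 genes had a best pair of contigs with a smallest share between 45% and 50%.

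**Figure D1:**
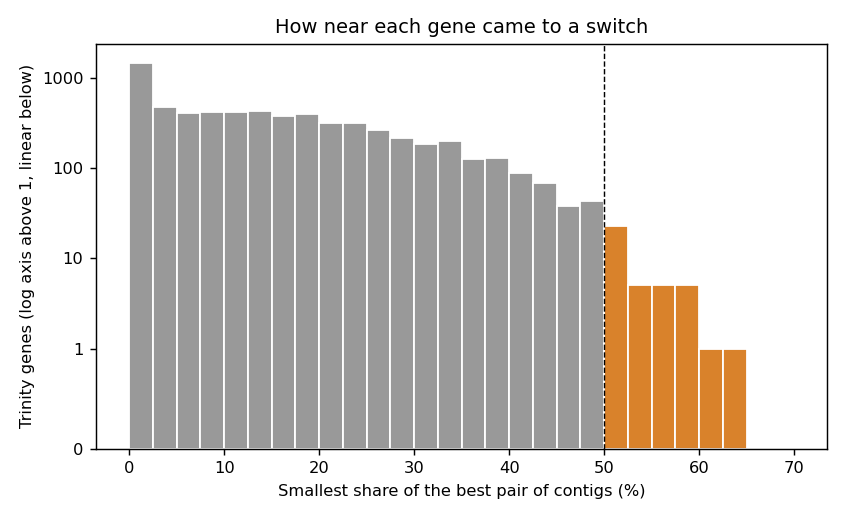
The horizontal axis gives, for each of the 6400 genes, the smallest share (%) of reads that the best pair of different contigs held in the libraries of its groups, and the vertical axis the number of genes (log axis above 1). Genes that met the rule are in orange right of the 50% line, and their number falls from 23 in the first bin to 1 in the last filled one.

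The size of the switch was moderate in most genes. The mycorrhizal leader held a median over the genes of 35.1%, 29.99% and 34.8% of the reads in the 3 asymbiotic libraries, and of 61.1%, 65.2% and 65.7% in the 3 mycorrhizal ones, in replicate order. The gain of a gene's mycorrhizal leader, from the asymbiotic to the mycorrhizal mean, ran from 15.3 to 60.8 percentage points with a median of 36.1. The asymbiotic leaders held a median of 34.8%, 33.2% and 25.1% in mycorrhizal replicates 1 to 3. These shares chose the genes, so they are given as a description without a test, and that the groups do not overlap follows from the rule.

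**Figure D2:**
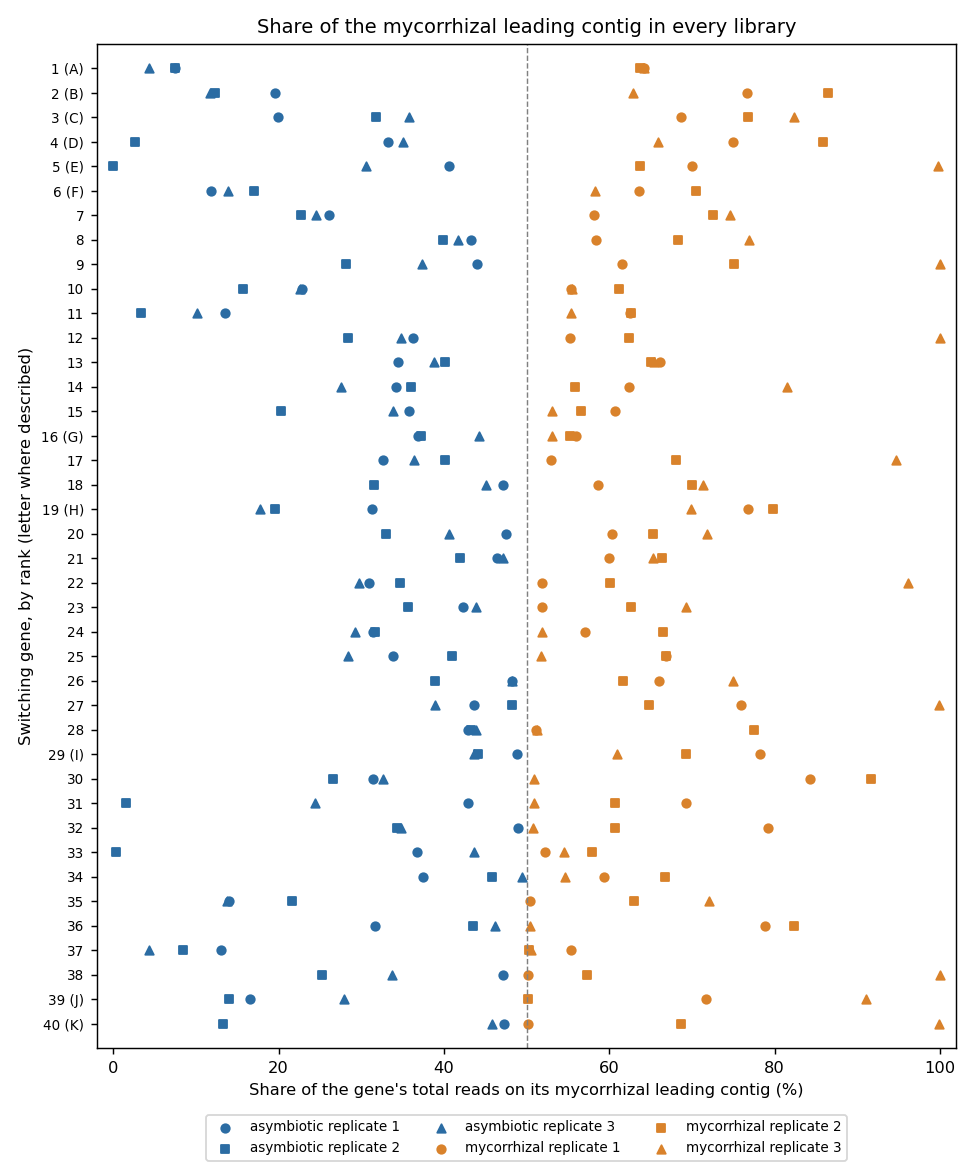
Each line is 1 of the 40 switching genes, ordered by the smallest share of its leaders, and the horizontal axis gives the share (%) of the gene's total reads on its mycorrhizal leader. Points are single libraries, blue for asymbiotic and orange for mycorrhizal, and the dashed line marks 50%. Several mycorrhizal replicate 3 points (triangles) lie near 100% or just above 50%.

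The gene with the highest smallest share, by which the genes are ranked here, was TRINITY_DN78774_c3_g3, called gene A below, which has 2 contigs. Its asymbiotic leader TRINITY_DN78774_c3_g3_i2, 412 bp long, held 92.6%, 92.5% and 95.7% of the gene's reads in the 3 asymbiotic libraries and 35.7%, 36.3% and 35.8% in the 3 mycorrhizal ones, in replicate order. The other contig, TRINITY_DN78774_c3_g3_i1 of 642 bp, went from 6.42% ± 1.80 to 64.1% ± 0.289 (SD, n = 3 each). The 3 mycorrhizal libraries differed by less than 1 percentage point. The whole gene stood at 22.6, 13.0 and 11.0 CPM in the asymbiotic and 46.9, 43.2 and 112 CPM in the mycorrhizal libraries. Every mycorrhizal library was above every asymbiotic one, and the ratio of group means was 4.34. The asymbiotic leader of gene A was not lost, with a log2 ratio of mean CPM (mycorrhizal over asymbiotic) of 0.74. The mycorrhizal leader had a log2 ratio of 5.37. Of all reads of gene A, 99.0% were unique, so its shares rest almost wholly on reads that fit 1 contig.

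The next gene, TRINITY_DN77477_c4_g3 or gene B, has 8 contigs, and its leading contig changed from a shorter to a longer one. The asymbiotic leader TRINITY_DN77477_c4_g3_i1, 653 bp long, held 61.9%, 74.8% and 64.0% of the reads in asymbiotic replicates 1 to 3. In mycorrhizal replicates 1 and 2 it held 13.9% and 7.56%, and in replicate 3 it had 0 of 3860 reads of the gene. A count of 0 there allows a share of up to 0.0777%, a limit that covers counting error alone. The mycorrhizal leader TRINITY_DN77477_c4_g3_i4, 1321 bp long, went from 14.5% ± 4.41 to 75.4% ± 11.9 (SD, n = 3 each). The level of the whole gene overlapped between the groups, at 28.5 ± 9.19 CPM without and 30.9 ± 7.77 CPM with the fungus (SD, n = 3 each). All reads of the mycorrhizal leader were unique (100%), against 32.5% of those of the asymbiotic leader. On unique reads the asymbiotic leader held 41.0%, 71.7% and 47.7% in asymbiotic replicates 1 to 3, and the mycorrhizal leader 42.2%, 26.8% and 27.9%. The mycorrhizal leader was thus slightly ahead in asymbiotic replicate 1. Of the gene's reads per contig length, it held 55.4%, 70.7% and 38.1% in mycorrhizal replicates 1 to 3.

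Genes C to F complete the 6 with the highest smallest share. Gene C has 3 contigs, with leaders of 2882 and 3352 bp. Its mycorrhizal leader held 20.0%, 31.8% and 35.7% of the reads in asymbiotic and 68.7%, 76.8% and 82.4% in mycorrhizal replicates 1 to 3. The gene as a whole overlapped between the groups, at 74.5 ± 14.9 and 83.4 ± 40.1 CPM (SD, n = 3 each). Only 8.98% of the reads of gene C were unique. On those its mycorrhizal leader went from 26.4% ± 9.76 to 78.6% ± 5.95 (SD, n = 3 each). Gene D has 5 contigs, with leaders of 1755 and 1861 bp. Its asymbiotic leader held 59.8%, 89.2% and 59.7% of the reads in the asymbiotic libraries and 18.2%, 9.82% and 0.0957% in the mycorrhizal ones, in replicate order. On total reads, asymbiotic replicate 2 was the highest and mycorrhizal replicate 3 the lowest of the 6 libraries. Only 8.06% of the reads of gene D were unique. On unique reads its asymbiotic leader held 55.5%, 40.7% and 53.1% in asymbiotic and 15.9%, 6.27% and 0% in mycorrhizal replicates 1 to 3. Asymbiotic replicate 2 was then the lowest asymbiotic library.

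Gene E has 3 contigs, with leaders of 2413 and 2481 bp, and asymbiotic replicate 2 and mycorrhizal replicate 3 were again its extreme libraries. Its mycorrhizal leader held 40.7%, 0% and 30.5% of the reads in asymbiotic and 70.0%, 63.7% and 99.8% in mycorrhizal replicates 1 to 3. In asymbiotic replicate 2, 0 of 962 reads allow a share of up to 0.312%. Its gain from the asymbiotic to the mycorrhizal mean was 54.1 points, and 31.3 points without asymbiotic replicate 2 and mycorrhizal replicate 3. Gene F has 8 contigs, and its leading contig changed from one of 2633 bp to one of 1277 bp. The longer contig was kept, at 53.5 ± 7.94 CPM without and 35.6 ± 17.1 CPM with the fungus, with overlap. The shorter one went from 9.26 ± 1.00 to 97.8 ± 33.9 CPM (SD, n = 3 each). The shorter contig held 11.8%, 17.1% and 13.8% in asymbiotic and 63.6%, 70.5% and 58.2% in mycorrhizal replicates 1 to 3. The whole gene F went from 65.9 ± 9.45 to 150 ± 38.6 CPM (SD, n = 3 each), with no overlap between the groups.

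**Figure D3:**
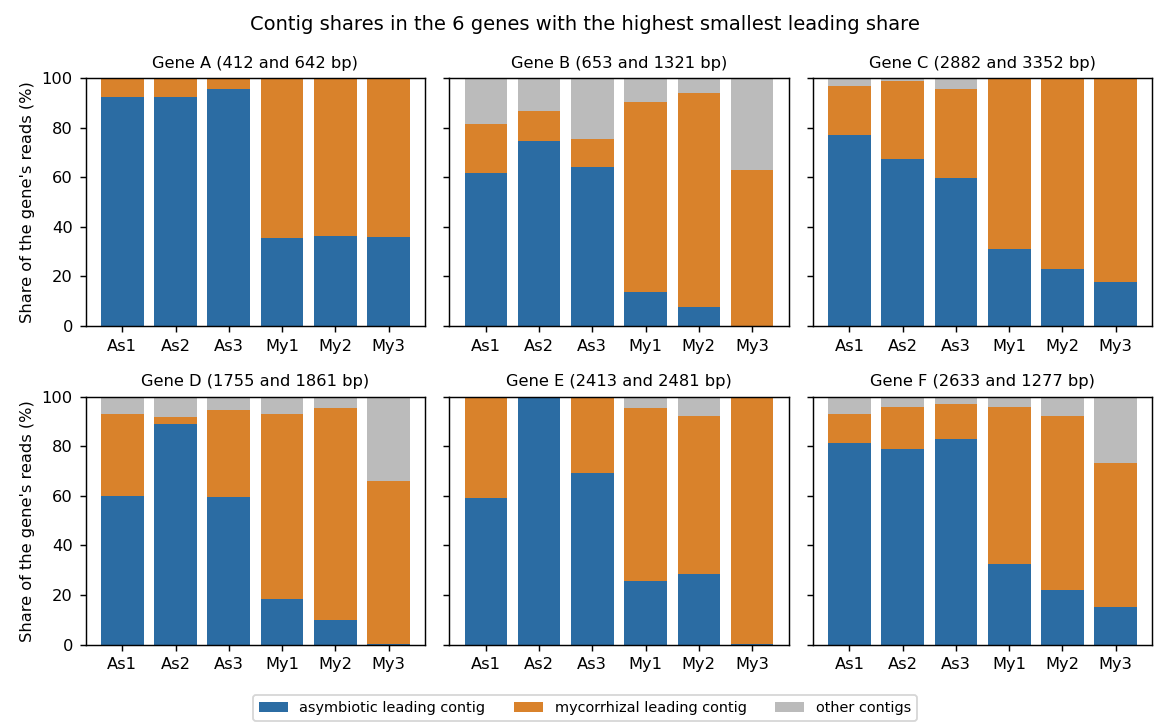
Bars give the share (%) of each gene's total reads on its asymbiotic leader (blue), its mycorrhizal leader (orange) and its other contigs (grey) in the 3 asymbiotic (As1 to As3) and 3 mycorrhizal (My1 to My3) libraries. Panel titles give the lengths of the asymbiotic and the mycorrhizal leader. In gene A the 3 mycorrhizal libraries are alike, while in genes B, D and E the asymbiotic leader is at or near 0 in mycorrhizal replicate 3.

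Among the most abundant genes, H stood out by its level. Gene H has 6 contigs, with leaders of 1149 and 1251 bp, and stood at 33.1, 31.2 and 29.8 CPM without the fungus and at 1884, 2559 and 1565 CPM with it, in replicates 1 to 3. The ratio of group means was 63.8, the highest of the 40 genes. Both leaders were higher with the fungus, with log2 ratios of mean CPM of 4.72 for the asymbiotic and 7.72 for the mycorrhizal leader. The share of the mycorrhizal leader was 31.4%, 19.5% and 17.8% in asymbiotic and 76.8%, 79.9% and 69.9% in mycorrhizal replicates 1 to 3. Only 3.94% of its reads were unique. On those unique reads its mycorrhizal leader went from 10.1% ± 6.04 to 80.7% ± 4.29 (SD, n = 3 each). Gene H had 2744 to 3639 reads in the asymbiotic libraries, which hold no fungus. Whether reads of fungal origin fell on its contigs in the mycorrhizal libraries was not tested, for gene H or for the other genes.

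Genes G and I were abundant in both groups and switched by less. Gene G has 2 contigs of 1138 and 1120 bp, and its mycorrhizal leader held 36.8%, 37.2% and 44.3% in asymbiotic and 56.0%, 55.2% and 53.1% in mycorrhizal replicates 1 to 3. This gain, 15.3 points, was the smallest of the 40. Its gene level was 489 ± 80.3 CPM without and 309 ± 122 CPM with the fungus (SD, n = 3 each), with overlap. Gene I has 2 contigs of 1236 and 1078 bp. Its mycorrhizal leader held 48.9%, 44.1% and 43.6% in asymbiotic and 78.2%, 69.3% and 60.9% in mycorrhizal replicates 1 to 3. The level of gene I varied far more between libraries than its shares, from 574 to 2240 CPM without the fungus and from 431 to 2272 CPM with it.

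At the edge of the rule, gene J, with 5 contigs and leaders of 5067 and 5078 bp, was inside because its mycorrhizal leader held 50.2% in mycorrhizal replicate 2, beside 71.8% and 91.1% in replicates 1 and 3. Gene K, with 2 contigs of 1871 and 1763 bp, was inside because its mycorrhizal leader held 50.2% in mycorrhizal replicate 1, beside 68.7% and 99.9% in replicates 2 and 3. In asymbiotic replicates 1 to 3 that contig of gene K held 47.2%, 13.3% and 45.8%. The nearest gene outside, with contigs of 1831 and 1807 bp, missed the rule by mycorrhizal replicate 2, where the second contig held 49.8%, beside 62.3% and 68.4% in replicates 1 and 3. The next one outside, with leaders of 1873 and 1836 bp, held 49.8%, 50.1% and 57.6% on the second contig in mycorrhizal replicates 1 to 3. The deciding shares on either side of the line, 50.2% and 49.8%, differ by less than the SD between mycorrhizal replicates in each of these 4 genes.

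In most of the 40 genes the group means of the 2 leaders differed in opposite directions. The rule chose opposite changes in share, so this is a description. It counts the signs of differences in mean alone, and in part of the leaders the libraries of the 2 groups overlapped. Some differences were near 0, as for the asymbiotic leader of the gene of rank 23, with a log2 ratio of -0.004. The CPM were not scaled by TMM. In the edgeR test, which is, the mycorrhizal leader of gene I had a log2 fold change of -0.07, against 0.10 from mean CPM. That of the gene of rank 8 had -0.05, against 0.03. The mean CPM of the asymbiotic leader was lower and that of the mycorrhizal leader higher with the fungus in 33 genes. Both were higher in 5 genes and both lower in 2. The log2 ratio of mean CPM had a median of -1.05 over the asymbiotic leaders, from -3.31 to 4.72, and of 1.31 over the mycorrhizal leaders, from -0.19 to 7.72. The 54 other contigs were found in 20 of the genes and together held a median of 3.52% of a gene's reads, up to 43.9%. The remaining 20 genes had 2 contigs only, so that in shares, though not in CPM, a gain of one is a loss of the other.

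**Figure D4:**
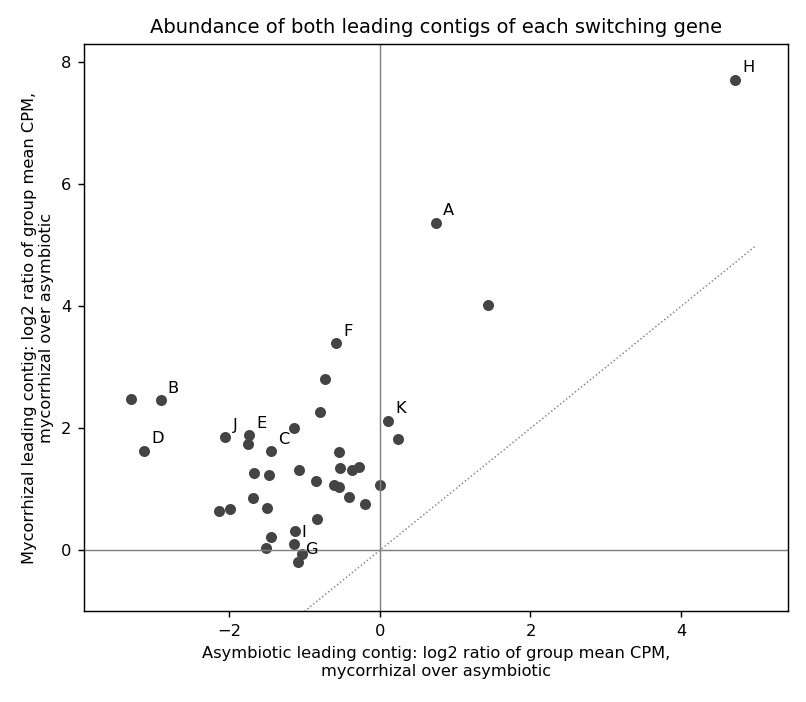
Each point is 1 of the 40 genes, placed by the log2 ratio of mean CPM (mycorrhizal over asymbiotic) of its asymbiotic leader (horizontal axis) and of its mycorrhizal leader (vertical axis), with letters for the genes described. Most points lie in the upper left, where the first is lower and the second higher with the fungus, and gene H lies far to the upper right at 4.72 and 7.72.

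In most of the 40 genes, as in most of the 6400, the mean level of the whole gene differed by less than 2-fold between the groups. The ratio of mean gene CPM, mycorrhizal over asymbiotic, lay between 0.5 and 2 in 33 of the 40 genes, or 82.5%, against 87.2% of the 6400 genes considered. It was above 2 in 7 genes, below 0.5 in none, and its median was 1.14, against 1.07 over the 6400. After gene H the highest ratio, 7.19, was that of the gene of rank 12, with 2 contigs of 3229 and 3019 bp, which stood at 33.0, 33.6 and 31.9 CPM without and 202, 232 and 273 CPM with the fungus, in replicates 1 to 3. Its libraries did not overlap, and its mycorrhizal leader held 55.2%, 62.4% and 99.99% of the reads in mycorrhizal replicates 1 to 3. Gene CPM did not overlap between the groups in 11 of the 40 genes, 6 of them higher and 5 lower with the fungus. The same held for 37.1% of the 6400 genes, 19.8% higher and 17.3% lower, so non-overlapping gene levels were not more frequent among the switching genes.

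Tests at 3 levels across the whole table place the 40 genes beside all others. Each used the contrast that chose them, so the counts are a description and nothing is read from them. EdgeR's quasi-likelihood test, at a Benjamini-Hochberg adjusted p under 0.05 over all features tested, called 8 of the 119 contigs of these genes that passed its filter on low counts. These were 5 mycorrhizal leaders higher, 2 asymbiotic leaders lower and the asymbiotic leader of gene H higher. Among all contigs tested it called 0.904%, with 0.655% higher and 0.249% lower. On reads summed per gene, it called 6 of the 40 genes, against 4.37% of all genes, 2.55% higher and 1.83% lower. Of the 6, 4 were higher (A, F, H and the gene of rank 12) and 2 lower (G and the gene of rank 37). With DESeq2, 3 of the 40 genes were called, 3 higher and 0 lower. Over all genes DESeq2 called 3264 of 55167, 1768 higher and 1496 lower. The median log2 fold change of the edgeR tests was 0.17 over the 119 contigs and -0.06 over all contigs. It was 0.03 over the 40 genes and -0.10 over all genes.

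The third test asked whether the contigs of a gene changed unequally, which is what the rule looks for. EdgeR's test of contig usage called 3 of the 40 genes (C, H and the gene of rank 11) and 0.314% of all genes with at least 2 contigs tested. Limma-voom's version called 4 of the 40 and 0.191% of all. On simulated counts the edgeR version called unchanged genes more often than its threshold sets. Those counts varied less between replicates than the real ones, so the rate of such calls in these data is not known. On unique reads the edgeR version called 0 of the 40 and 6 of all 9590 genes tested. Of the 40, 5 had an unadjusted p under 0.05 there. Without mycorrhizal replicate 3 it called 7 of the 40, but also more genes in general, 277 of all 14191 tested against 41 of 13065 with all libraries. Without any one of the other libraries it called 1 of the 40 and 10 to 37 of all genes.

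Unique reads are part of the total reads that chose the genes, so their shares are a description too. Unique reads made up a median of 29.7% of a switching gene's reads, from 3.94% to 99.0%, against 17.3% over the 6400 genes considered and 37.4% over the 2875 that kept 1 leader. On unique reads the mean share of the mycorrhizal leader was higher in mycorrhizal protocorms in all 40 genes, by 9.44 to 70.6 points with a median of 31.7. The groups did not overlap in 38 of them, 5 of which had no unique read in mycorrhizal replicate 3 and rest on the other libraries. The same contigs held at least 50% of the unique reads in every library of their groups in 22 of the 40 genes. The gain of 9.44 points was that of the gene of rank 11, with leaders of 1373 and 1429 bp and 5.75% unique reads. On total reads its mycorrhizal leader held 13.5%, 3.41% and 10.2% in asymbiotic and 62.5%, 62.7% and 55.4% in mycorrhizal replicates 1 to 3. On unique reads it held 7.43%, 0% and 3.58%, and 6.58%, 25.7% and 7.09%, so the groups overlapped. Its asymbiotic leader had no unique read in any mycorrhizal library.

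**Figure D5:**
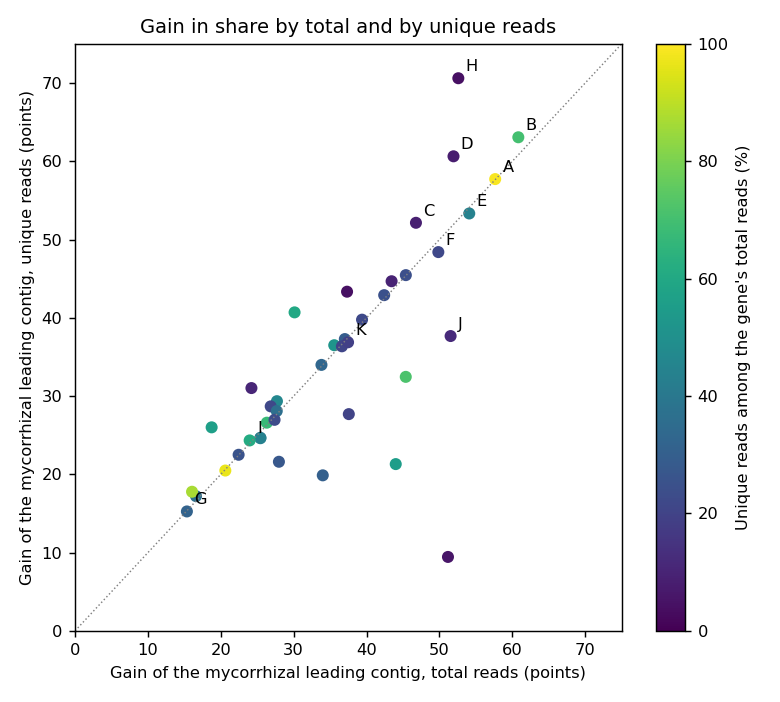
Each point is 1 of the 40 genes, placed by the gain in share of its mycorrhizal leader from the asymbiotic to the mycorrhizal mean (percentage points) on total reads (horizontal axis) and on unique reads (vertical axis). Colour gives the share (%) of the gene's reads that were unique, and the dotted line marks equal gains. All points lie above 0 on both axes, and the lowest one is the gene of rank 11 at 9.44 points on unique reads.

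Mycorrhizal replicate 3 held a different kind of value in part of these genes. In 12 of the 40 the asymbiotic leader held under 5% of the reads there, against 0 genes in mycorrhizal replicate 1 and 1 in replicate 2. No share over the 6400 genes is given beside this count. In 7 genes a single contig held at least 95% of the reads in mycorrhizal replicate 3, or 17.5%, against none in the other mycorrhizal libraries and at most 2 in an asymbiotic one. Over the 6400 genes the same was found for 35.7% in mycorrhizal replicate 3, against 21.9% and 23.5% in replicates 1 and 2 and 18.8% to 22.6% in asymbiotic libraries. A single contig at 95% or more in mycorrhizal replicate 3 was thus not particular to the switching genes. With mycorrhizal replicate 3 left out of the mean, the median gain of the mycorrhizal leaders was 29.6 points in place of 36.1.

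In the opposite direction, 5 of the 40 genes (those of ranks 15, 31, 32, 36 and 37) had no unique read in mycorrhizal replicate 3, though 2095 to 11206 reads in total. Their mycorrhizal leaders held 50.5% to 53.1% of the total reads there, close to an even split and just past the 50% that the rule asks for. In mycorrhizal replicates 1 and 2 the same contigs held 50.3% to 82.3%. Of the 5 genes, 4 have 2 contigs and the gene of rank 31 has 3. Among all 1866 genes of 2 contigs considered, 232 had no unique read in mycorrhizal replicate 3, or 12.4%, and 204 of these had a larger share under 55%. In the other libraries 2 to 20 such genes had no unique read, or 0.107% to 1.07%. The sources used here do not say how reads that fit several contigs were divided, and its part in these 5 switches was not tested. With a unique read asked for in every library, 35 of the 40 genes remain.

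Contigs of unequal length collect unequal numbers of reads at the same transcript level. The leaders were 412 to 5067 bp (asymbiotic) and 288 to 5078 bp (mycorrhizal) long. The mycorrhizal leader was the longer one in 18 genes and the shorter one in 22. Their lengths differed by 4 to 1403 bp with a median of 71 bp, and in 20 of the 40 genes by at most 5% of the longer one. For comparison, the 2 most abundant contigs of the 6400 genes lay that close in 33.3%. Per length, on the deposited RPKM, the asymbiotic leader was above the mycorrhizal leader in the asymbiotic means of 38 genes, and the mycorrhizal leader above the other in the mycorrhizal means of all 40. At least 50% of the gene's summed RPKM in every library was held by both leaders in 26 genes. In gene A the mycorrhizal leader held 53.4% ± 0.312 per length in mycorrhizal protocorms, against 64.1% of the reads. In gene E, per length, the mycorrhizal leader overlapped between the groups, with 34.3% in mycorrhizal replicate 2 and 39.5% in asymbiotic replicate 1. In mycorrhizal replicate 2 it was still the higher of the 2 leaders, as the asymbiotic leader held 15.8% per length. The gene's remaining contig, of only 210 bp, had 7.83% of the reads there.

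In other respects the 40 genes were spread over the assembly. They lay in 40 different Trinity components, the sets of connected contigs from which genes are separated, and 16 of them were the only gene of their component, against 38.9% of the 6400. Genes of 2 contigs made up 20 of the 40 and 29.2% of the 6400. Their mean gene CPM had a median of 51.4, against 45.9 over the 6400. The reads behind a gene's shares in a library numbered from 962 to 505488.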

How the data were processed

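The data are 6 RNA-seq libraries, 3 asymbiotic and 3 mycorrhizal. Per the file headers, the authors deposited for each contig 2 raw read counts, unique and total, and an RPKM. Per the series' design text, reads of 150 bp were aligned to a Trinity assembly of the asymbiotic reads; the sources used here do not give the aligner, the counter, the strand or how non-unique reads were shared. Contig lengths were recovered from RPKM and total counts, within 0.00338 bp of whole numbers. CPM is total reads over the library total. The members and tests were chosen with earlier results of these data known. Described genes were the 6 with the highest smallest share, the 3 most abundant, and the 2 nearest the 50% line on each side; identifiers are printed for 2 genes. Tests used edgeR 4.0.16 (filterByExpr, TMM, quasi-likelihood, and diffSpliceDGE for usage), limma 3.58.1 and DESeq2 1.42.0 in R 4.3.3, without covariates. Those of edgeR and limma were also run on simulated counts, which varied less between replicates than the real ones. The labels call the libraries biological replicates, and within groups, libraries differed by a chi-square per degree of freedom of 80.0 to 755, so none was a copy.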

Additional observations from a re-analysis of the deposited data

How the results depend on the processing

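The number of switching genes, 40, depends on the limits set. It was 2 at a minimum share of 60%, 0 at 75%, 77 at a minimum of 1 CPM and 20 at 30 CPM. It was 29 on unique reads (18 of them among the 40), 42 on reads per length (26 shared) and 38 with TMM-scaled CPM. Leaving out 1 library drops a condition, so the number can only grow. It lay between 57 and 89, with 86, 61 and 89 without mycorrhizal replicates 1, 2 and 3. Without both asymbiotic replicate 2 and mycorrhizal replicate 3, an alternative chosen after seeing the data like the request for a unique read, it was 133.

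The median gain of the mycorrhizal leaders, 36.1 points, was 31.7 on unique reads, 29.6 to 38.4 with 1 library left out (33.2 without asymbiotic replicate 2) and 28.6 without both libraries. Of the single genes, 6 moved beyond their replicate SD on unique reads, 4 per length and 2 without both libraries.

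The called contigs, 8, were 16 without the filter on low counts and 2 without both libraries. With 1 library left out they were 6 to 14 (14 without mycorrhizal replicate 3). Over all contigs the calls were 843 of 93242 in the main test and 2458 of 188302 without the filter. They were 112 of 117367 without both libraries and 516 to 1897 with 1 left out (1897 without mycorrhizal replicate 3). The called genes, 6, were 3 with DESeq2, 2 without both libraries and 4 to 9 with 1 left out. Over all genes the calls were 2500 of 57152, and 3264 of 55167 with DESeq2. They were 1212 of 78228 without both libraries and 1603 to 5658 with 1 left out. The usage calls, 3, were 0 with a replicate block and 0 on unique reads, 7 without both libraries and 1 to 7 with 1 left out. Over all genes tested for usage the calls were 41 of 13065, and 1 of 13065 with the block. They were 6 of 9590 on unique reads, 445 of 14185 without both libraries and 10 to 277 with 1 left out. With the replicate block, 9 of the 40 genes had an unadjusted usage p under 0.05. The block called 8 of their contigs and 5 of the genes, beside 879 of all contigs and 2022 of all genes. The replicate numbers share no stated origin, and same-numbered libraries did not deviate together (r = 0.014, -0.03 and -0.075).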
